A study of Homo sapiens with 2 samples.

Results

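The genes described here are 10 genes of the NF-κB system, namely the 5 subunits NFKB1, NFKB2, RELA, RELB and REL, the inhibitors NFKBIA, NFKBIE and TNFAIP3, and the target genes BIRC3 and ICAM1. They were chosen by name, as the probes other than control probes whose gene name on the array was 1 of these 10. They made up 10 of 43317 gene names and 11 of 58201 probes, and all 10 genes gave a signal well above background on both arrays.

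Expression was measured in Ca9-22, a line of oral squamous cell carcinoma (OSCC) cells grown in RPMI-1640. One culture had received DLEU1, a long noncoding RNA, from a lentivirus (DLEU1 vector) and the other a control lentivirus without it (control vector). Both cultures were selected with 6 mg/ml blasticidin for 2 weeks, so both had been through infection and the antibiotic. Each group was 1 RNA sample on 1 Agilent array with 1 colour (Cy3), called the control array and the DLEU1 array below, so no test, p-value or replicate error could be computed for any gene. The DLEU1 cDNA was carried in pLenti6/V5-DEST. The promoter that drove DLEU1 and the number of clones in each culture are not given in the sources used here. DLEU1 itself, read by its brightest probe, was 6.67-fold higher on the DLEU1 array, and its dimmer probes were 1.81-fold and 1.46-fold higher.

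NF-κB is a family of transcription factors that work as dimers of the 5 subunits. RELA, RELB and REL carry a domain that activates transcription, whereas NFKB1 and NFKB2 are made as precursors and cut to the shorter DNA-binding forms. In resting cells the dimers are held in the cytoplasm by inhibitors of the IκB family such as NFKBIA and NFKBIE. Signals from receptors for TNF or interleukin-1 activate the IκB kinases, the inhibitors are degraded, and the dimers enter the nucleus. Several of the genes they switch on encode brakes of the same pathway, among them NFKBIA and the ubiquitin-editing enzyme TNFAIP3, and others encode cytokines, survival factors such as BIRC3 and the leukocyte adhesion molecule ICAM1. In squamous epithelium the pathway is known for its part in inflammation and survival.

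The levels below are log2 processed signals minus the 75th percentile of the array, and a difference is the level on the DLEU1 array minus that on the control array. Signals without this scaling are given as intensities. A difference was called where it reached 2-fold, a descriptive threshold. Spots of the same probe had an SD of 0.080 for the log2 difference of a spot over 282 probes with replicated spots. Probes of the same gene spread more, with an SD of 0.47 pooled over 4674 genes and a median SD of 0.232. A multiple of the spot SD below leaves out both this spread and the variation between cultures, which could not be measured. In such bulk RNA, fewer cells of a type and less RNA per cell cannot be told apart.

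The part of the probe sequences that reads the called genes is shown first, because each of these genes was read by a single 60-base probe with 1 spot per array. The first 30 bases are given, from 5′ to 3′ as deposited.
REL (probe A_23_P56938, NM_002908): cagtattcaggtattggcagtatgcaaaat
TNFAIP3 (probe A_24_P157926, NM_006290): ccttatgaaactccagctatgtaataaaaa
BIRC3 (probe A_23_P98350, NM_001165): tcctatacatcgaaggtgtgcatatatgtt
NFKBIE (probe A_23_P30655, NM_004556): aagcatggactctcctgagtgagaagagac

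The promoters of 4 genes follow, because they hold matches to the DNA motif the subunits bind and because these genes differed from one another in what the arrays measured. Each is the 250 bases before the transcription start from RefSeq (GRCh38.p14), from 5′ to 3′ on the strand of the gene, and capitals mark matches to the κB consensus motif of 10 letters on either strand.
REL (chr2:60881324-60881573, + strand): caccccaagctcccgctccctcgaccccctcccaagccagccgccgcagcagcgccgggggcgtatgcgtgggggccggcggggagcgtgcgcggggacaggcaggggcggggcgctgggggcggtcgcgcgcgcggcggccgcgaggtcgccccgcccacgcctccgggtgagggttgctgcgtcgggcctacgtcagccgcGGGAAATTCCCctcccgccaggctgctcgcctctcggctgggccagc
TNFAIP3 (chr6:137867009-137867258, + strand): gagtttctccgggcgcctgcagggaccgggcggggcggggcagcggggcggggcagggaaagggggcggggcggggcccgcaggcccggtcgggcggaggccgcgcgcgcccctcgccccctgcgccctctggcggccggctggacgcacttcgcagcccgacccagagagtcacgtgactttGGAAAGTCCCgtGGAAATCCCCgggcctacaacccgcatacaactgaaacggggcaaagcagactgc
BIRC3 (chr11:102317234-102317483, + strand): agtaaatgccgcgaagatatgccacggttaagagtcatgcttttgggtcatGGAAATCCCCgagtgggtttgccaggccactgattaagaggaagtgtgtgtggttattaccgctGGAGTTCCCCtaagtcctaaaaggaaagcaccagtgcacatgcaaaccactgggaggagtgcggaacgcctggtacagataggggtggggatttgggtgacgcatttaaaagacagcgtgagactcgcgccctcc
NFKBIA (chr14:35404750-35404999, - strand): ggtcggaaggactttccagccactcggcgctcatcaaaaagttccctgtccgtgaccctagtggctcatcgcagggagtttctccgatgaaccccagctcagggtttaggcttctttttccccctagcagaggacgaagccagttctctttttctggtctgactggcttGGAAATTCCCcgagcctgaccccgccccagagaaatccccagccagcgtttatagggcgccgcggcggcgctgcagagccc

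The RefSeq table held 12 promoter windows of 300 bases for 8 of the 10 genes and none for RELB and NFKBIE. The κB consensus motif was found in 7 of the 12 windows (58.3%) and in 6 of the 8 genes, against 2063 of 34941 windows of all genes (5.90%). The genes were chosen by name for their part in the NF-κB system, so these shares describe the choice and not the arrays. Windows of the same gene were counted apart. Overlapping matches were counted as 1 site. The matches in REL began at positions -47 and -46 from the start and overlapped. TNFAIP3 had matches at -67 and -55, BIRC3 at -199 and -135, and NFKBIA at -81. NFKB1 and NFKB2 were the other genes with a match, and 4 of the 12 windows held at least 2 sites. No match was found in the windows of RELA and ICAM1, which says only that these letters are not in them. A match was thus present in the gene that rose most among the 10, in the 2 that fell most and in NFKBIA, whose level differed little.

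Among the subunits, REL stood apart. REL encodes c-Rel, a subunit known best from lymphocytes. Its signal was 508.9 on the control array and 2313 on the DLEU1 array, so its log2 level went from 1.07 to 3.29, a difference of 2.22 or 4.67-fold. Probes of similar brightness had a spot SD of 0.0723, and the REL difference was 30.7 times that. Of 20246 genes detected on both arrays, 321 (1.59%) had a larger increase. The probe lies on chromosome 2 from 61149596 to 61149655 (hg19, + strand).

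NFKB1, which encodes the precursor of a partner of RELA in the classical dimer, was lower with the DLEU1 vector. Its signal was 2285 on the control array and 1266 on the DLEU1 array, and the log2 difference was -0.81 (1.76-fold lower). RELB, the partner of NFKB2 in the noncanonical branch, had signals of 5561 and 3139 and a difference of -0.79 (1.73-fold lower). These differences were 14.2 and 12.7 times the spot SD at their brightness and did not reach 2-fold. A total of 14.1% of all genes lay below NFKB1 and 14.8% below RELB. The probes lie on chromosome 4 from 103537856 to 103537915 (NFKB1) and on chromosome 19 from 45541385 to 45541444 (RELB), both on the + strand of hg19.

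RELA, the main activating subunit of the classical dimer, had nearly equal levels on the arrays. The signal of its brighter probe was 2808 on the control array against 2738 on the DLEU1 array, a log2 difference of 0.00090 after scaling. Its dimmer probe gave 634.7 and 547.8, a difference of -0.18. This was the only member probe with a spot in a strip of array positions picked for its many spots lower on the DLEU1 array. By that choice, 42.9% of lit spots in the strip were 2-fold lower before scaling, against 13.5% elsewhere. Which of the arrays the strip comes from was not tested. NFKB2 was dim, with signals of 111.7 and 130.4. Its difference of 0.26 was 1.86 times the spot SD of 0.140 at that brightness. The sign of RELA changed under 7 of 13 other settings and that of NFKB2 under spike-in scaling (-0.14), so neither had a settled direction. Over the 5 subunits, 3 were higher and 2 were lower, and REL was the only 1 past 2-fold.

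**Figure D1:**
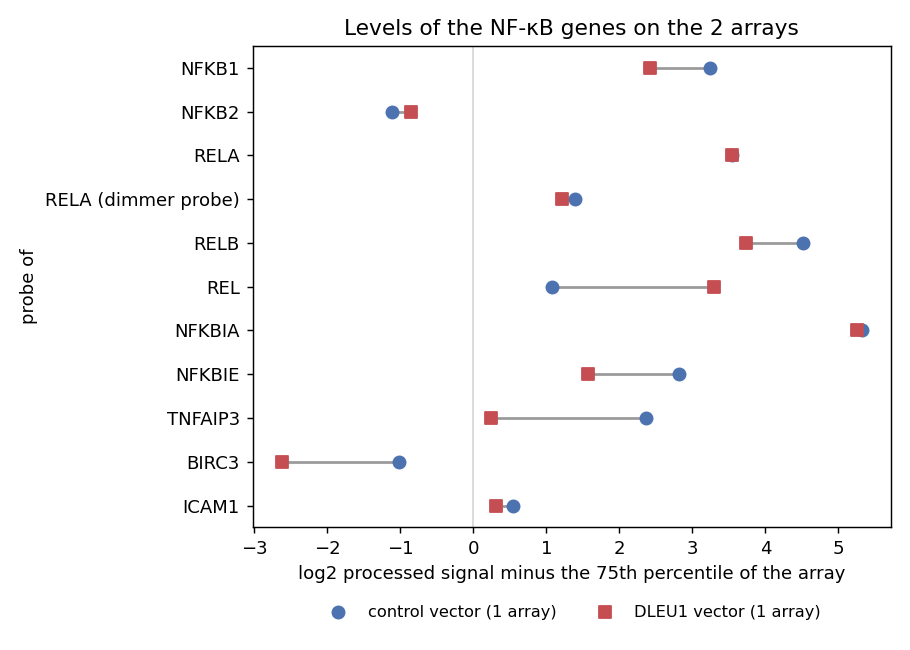
Log2 processed signal minus the 75th percentile of the array for the 11 probes of the 10 NF-κB genes, on the control array (circles) and the DLEU1 array (squares), with a line joining the values of a probe. REL moved up from 1.07 to 3.29 and TNFAIP3 down from 2.36 to 0.24, while RELA and NFKBIA barely moved. Levels of different probes cannot be set against each other, only the ends of a line.

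The inhibitors did not move alike. TNFAIP3, the deubiquitinating enzyme that shuts off signalling from the TNF receptor, fell from a signal of 1247 to 279.1. Its log2 level went from 2.36 to 0.24, a difference of -2.12 (4.35-fold lower). This was 26.3 times the spot SD of 0.0808 at its brightness, and 334 of the 20246 genes (1.65%) had a larger decrease. The probe lies on chromosome 6 from 138203679 to 138203738 (hg19, + strand).

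NFKBIE encodes IκBε, an inhibitor that holds dimers of RELA and REL in the cytoplasm. Its signal was 1710 on the control array and 703.8 on the DLEU1 array, and its log2 level fell by 1.24 (2.37-fold). A total of 5.97% of all genes had a larger decrease. The NFKBIE probe lies on chromosome 6 from 44226558 to 44226617 (hg19, - strand).

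NFKBIA, which encodes IκBα, the best-known inhibitor and an early target of the pathway, lay near the middle of all genes, 50.2% of which were below it. Its probe had 10 spots per array, of which 8 on each array were not outliers. These ranged from 9315 to 9870 with a median of 9691 on the control array, and from 8642 to 9325 with a median of 9003 on the DLEU1 array, so the ranges met at their edges. The log2 difference was -0.07 with an SD of 0.0307 over the 8 pairs of spots. Its sign turned positive with quantile normalization, with loess and where the 75th percentile was taken over detected probes, and loess gave the highest value of 0.18. NFKBIA and TNFAIP3, both known as feedback targets, thus differed from each other by 2.06 on the log2 scale on the same pair of arrays.

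Of the target genes, BIRC3 fell and ICAM1 did not pass 2-fold. BIRC3, a ubiquitin ligase that protects cells from TNF-induced death, was dim, with a signal of 119.8 on the control array and 38.2 on the DLEU1 array. The log2 difference was -1.61 (3.06-fold lower), which was 11.5 times the spot SD of 0.140 at this brightness. With normexp in place of the software's background correction it was -0.77, which ends the call. Normexp here includes an offset of 50 added to every signal, which by itself shrinks the differences of dim probes. For this and the normexp values below, the part of the offset was not separated from that of the background estimate. The probe lies on chromosome 11 from 102208356 to 102208415 (hg19, + strand). Its neighbour and paralogue BIRC2, 40.03 kb away on chromosome 11, had a difference of -0.09.

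ICAM1, the ligand by which leukocytes attach, was read at 10 spots per array. The control array gave 304.7 to 378.2 with a median of 355.3 over 10 spots, and the DLEU1 array 250.4 to 338.6 with a median of 296.2 over 9 spots. The ranges overlapped. The log2 difference was -0.23 with an SD of 0.126 over 9 pairs of spots, and it was below 0 under all 13 other settings.

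Counted together, 1 of the 10 genes (10.0%) was past 2-fold upward (REL) and 3 (30%) downward (NFKBIE, TNFAIP3 and BIRC3). Over all 20246 genes detected on both arrays the corresponding shares were 9.18% and 9.78%, or 19.0% in either direction against 4 of the 10 genes. The share of higher genes was near this background. A total of 7 of the 10 were lower by any amount, against 54.2% of all genes, and 3 were higher, against 45.8%. The median difference over the 10 genes was -0.51, against -0.07 over all genes. With 10 genes and 1 array per group these shares are a description, and REL moved against the direction of the median.

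A change of scale moved all genes together. In spike-in scaling, the median log2 difference of 8 spike-in probes (0.36) was taken off the DLEU1 array in place of the percentile step. The median of all genes shifted by -0.40 and the members with it, so that NFKB1 (-1.21) and RELB (-1.19) also passed 2-fold. Relative to that shift their differences were as in the main setting. The 8 probes ran from -0.19 at the brightest to 0.54 at the dimmest, so 1 shift did not make them equal. REL, TNFAIP3 and NFKBIE stayed past 2-fold under all 13 other settings that could move a single gene. REL ranged from 1.82 to 2.35, TNFAIP3 from -2.52 to -1.94 and NFKBIE from -1.64 to -1.11. The gap between REL and TNFAIP3 was 4.34 on the log2 scale.

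**Figure D2:**
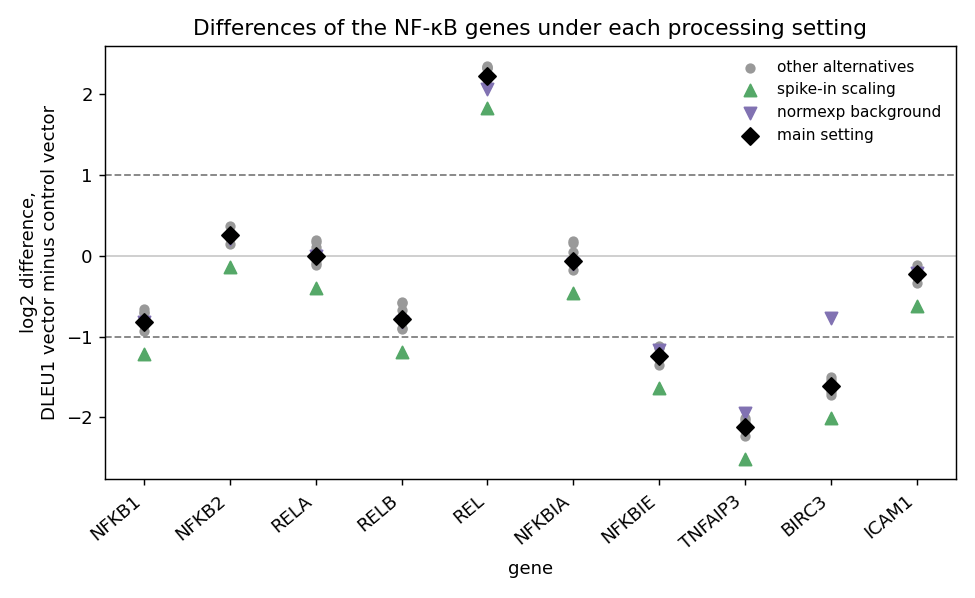
Log2 difference (DLEU1 vector minus control vector) of each NF-κB gene in the main setting (diamonds), with spike-in scaling (triangles pointing up), with normexp background correction (triangles pointing down) and with the other alternatives (grey circles). Dashed lines mark 2-fold. REL stayed above and NFKBIE and TNFAIP3 below these lines throughout. BIRC3 crossed the line with normexp (-0.77), which includes an offset of 50.

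The genes around the called members were read to see whether a member moved alone, a step added after the data were seen. Of 9 genes with a symbol that were detected within 500 kb of the REL probe, 6 were higher, against 45.8% of all genes. At least 2-fold higher were 3 of the 9, against 9.18% of all genes. PUS10, a pseudouridine synthase gene 19.8 kb from REL, went from a signal of 70.1 to 607.9, a difference of 3.15 (8.90-fold). PEX13, a peroxisome assembly gene 126.3 kb away, went from 685.8 to 2297, a difference of 1.78. BCL11A, a transcription factor gene on the other side of REL, went from 62.5 to 429.2, a difference of 2.82. PUS10 and BCL11A were thus dim on the control array, and the values of the neighbours are given in the main setting only. PAPOLG, between BCL11A and REL, differed by 0.56. The median of the 9 genes was 0.75, and that of the 8 genes between 500 and 2000 kb away was -0.31, with XPO1 the lowest at -1.44. Around NFKBIE 2 of 9 genes fell past 2-fold and 0 rose past it, against 9.78% and 9.18% of all genes. By any amount 6 of the 9 were lower and 3 higher, beside 54.2% and 45.8% of all genes. Around TNFAIP3 1 of the 2 detected genes rose past 2-fold (PERP, 1.21), and the other (KIAA1244, -0.77) was lower without reaching 2-fold. Around BIRC3 2 of 8 rose past 2-fold and 1 fell past it, with 5 higher and 3 lower by any amount. With so few genes around each member, these counts are a description beside the shares of all genes. No copy number was measured, and what the genes near REL share was not tested.

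**Figure D3:**
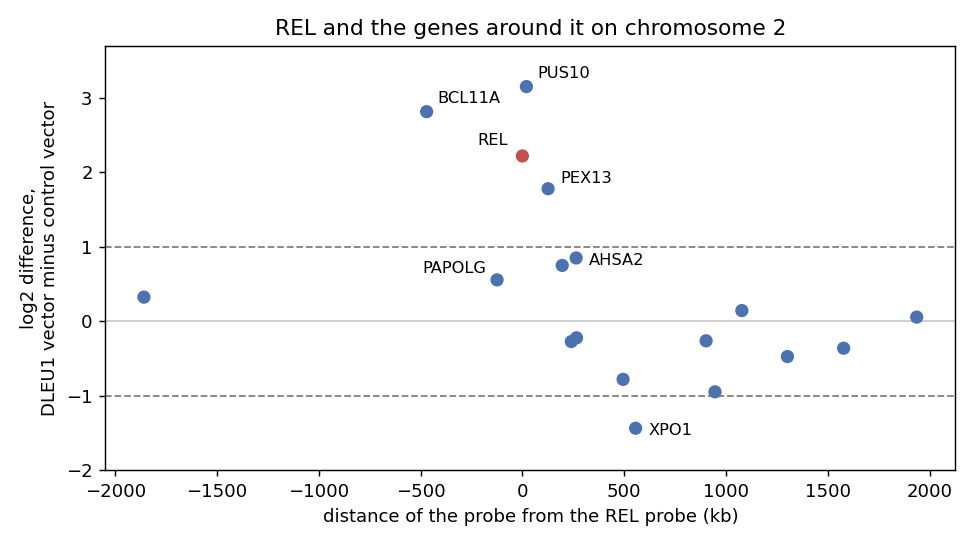
Log2 difference (DLEU1 vector minus control vector) of REL (red) and of the other detected genes with a symbol within 2000 kb of its probe on chromosome 2 (blue), by distance from the REL probe in kb. Dashed lines mark 2-fold. The genes past 2-fold upward (BCL11A, REL, PUS10 and PEX13) all lie within 500 kb, and XPO1 beyond it is at -1.44.

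The other genes of the pathway were taken from 7 lists by role, with 87 genes in all. All 87 had a probe, 69 were detected on both arrays, 4 with the control vector only and 14 on neither. Of the 69, 2 (2.90%) were past 2-fold upward and 15 (21.7%) downward, beside the shares of all genes given above (9.18% and 9.78%), and their median was -0.18. The number of higher genes moved between 0 and 4 with the scaling.

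The ligands were few. IL1B, the secreted interleukin-1β, was bright and differed by -0.53. IL1A, the epithelial alarmin, fell by 1.04, which 4 of 13 other settings put under 2-fold. LTB was detected with the control vector only and was at least 2.74-fold lower with the DLEU1 vector. This bound compares it with the higher of the lowest signal well above background and its own signal on the dim array. The level of LTB on the control array was -2.59, where the lowest detected level was -4.09. Such bounds are given in the main setting only. TNF itself was detected on neither array.

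Of the 7 receptors detected, TNFRSF12A, the receptor for TWEAK, was lower by 1.47 on the log2 scale. The difference was -1.29 for TNFRSF11A, the receptor known as RANK, which normexp moved to -0.49. IL1RAP, the accessory chain of the interleukin-1 receptor, was higher by 1.19, although the mean of its probes and spike-in scaling put it under 2-fold. The main TNF receptor TNFRSF1A differed by 0.15. The median of the 7 receptors was 0.08, which median scaling turned to -0.03 and spike-in scaling to -0.32.

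The adaptors and ubiquitin ligases that link receptors to the kinases were all detected, 17 of 17. Of these, 5 (29.4%) fell past 2-fold and 0 rose past it, against 9.78% and 9.18% of all genes. CARD10, a scaffold of epithelial cells that brings BCL10 and MALT1 together, was lowest at -1.71. MALT1, the protease of that complex, differed by -1.23, and BCL10 by 0.17. TRAF3, which keeps the noncanonical branch off, differed by -1.60, the interleukin-1 receptor kinase IRAK1 by -1.50 and TRAF2 by -1.12. With normexp MALT1 was at -0.44, and TRAF2 was under 2-fold with loess, quantile normalization and the mean of probes. The other 12 lay between -0.67 and 0.92.

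The kinases did not pass 2-fold in either direction (0 of 10, against 19.0% of all genes). CHUK and IKBKB, the catalytic IκB kinases, differed by -0.77 and 0.35, and MAP3K14, the kinase that starts the noncanonical branch, by -0.85. All 4 of the other IκB family genes were lower, from NFKBIB (-1.03) to NFKBID (-0.57), against 54.2% of all genes. NFKBIB was under 2-fold in 4 of 13 other settings. NFKBID and NFKBIZ were dim, and a signal of at least 100 left 2 of the 4 genes, both lower. Normexp moved the median of the 4 from -0.71 to -0.41. Of the other brakes of the pathway, 0 of 9 detected genes passed 2-fold, against 19.0% of all genes. Their differences were above 0 in 7 of 9, against 45.8% of all genes, and with spike-in scaling in 3 of 9, against 25.6%. The deubiquitinating enzyme CYLD was the highest of them at 0.88 and TNIP2 the lowest at -0.40. TNFAIP3, at -2.12, was below all of them.

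Among other target genes, 6 of 19 detected on both arrays fell past 2-fold (31.6%, against 9.78% of all genes). Past 2-fold upward was 1 of the 19 (5.26%, against 9.18% of all genes). CSF2, which encodes the growth factor GM-CSF, differed by -2.54, the chemokine gene CXCL2 by -2.18 and IL6 by -1.71. All 3 had a signal under 100 on at least 1 array. With normexp IL6 was at -0.59, and CSF2 and CXCL2 stayed past 2-fold in 12 of 12 other settings that measured them. CXCL8, the neutrophil chemokine, was detected with the control vector only and was at least 7.85-fold lower with the DLEU1 vector. CXCL1 had a bound of at least 1.12-fold in the same direction. IRF1 was higher by 1.03, a call that 5 of 13 other settings ended, XIAP by 0.88 and GADD45B by 0.16, the last of which spike-in scaling turned to -0.24. The median of the 19 genes was -0.62, and NFKBIE, TNFAIP3 and BIRC3 lay below it while NFKBIA and ICAM1 lay above it.

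**Figure D4:**
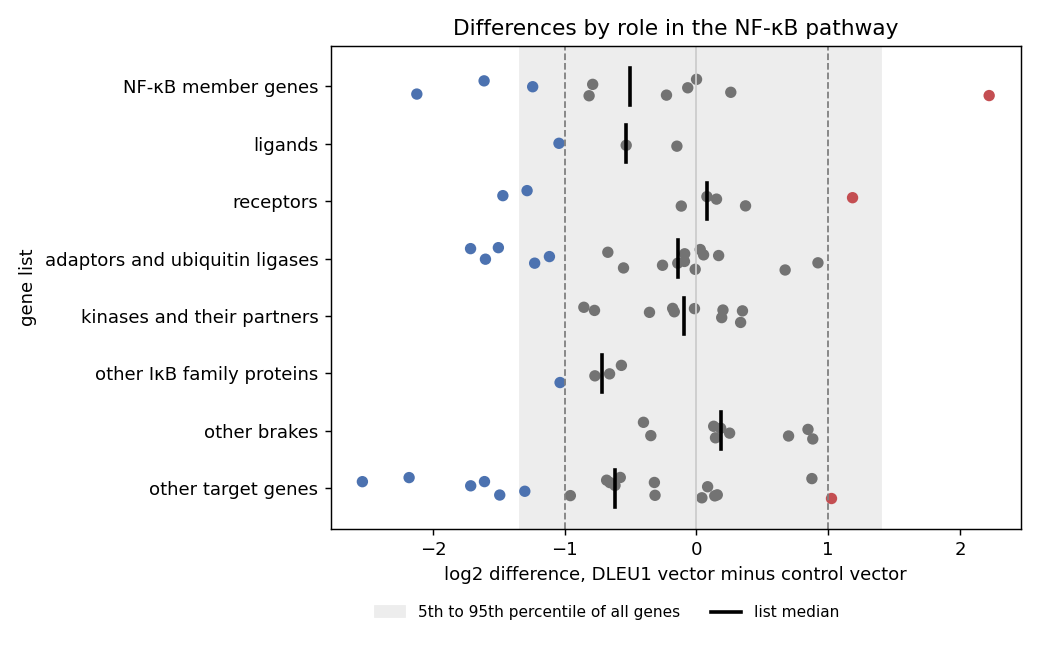
Log2 difference (DLEU1 vector minus control vector) of each gene detected on both arrays, for the 10 NF-κB member genes and 7 lists of pathway genes. Red points are at least 2-fold higher, blue points at least 2-fold lower and grey points under 2-fold. Black bars are list medians, dashed lines mark 2-fold, the shaded band runs from the 5th to the 95th percentile of all genes (-1.34 to 1.40), and the vertical scatter within a list has no meaning. REL (2.22) and TNFAIP3 (-2.12) lie outside the band on opposite sides.

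Markers of cell types were read as a check of the cell line. All 8 squamous epithelium markers were detected on both arrays, with summed signals of 236700 and 411000. Of the 8, 5 were at least 2-fold higher with the DLEU1 vector, against 9.18% of all genes. These ran from CDH1 (1.04), whose probe lay in the strip described for RELA, to KRT17 (3.09). TP63 differed by 0.96, SFN by 0.0015 and EPCAM by -0.78. Of the leukocyte markers with a probe 3 of 4 were detected, with a summed signal of 302.3 on the control array and 246.9 on the DLEU1 array, and CD3E was not detected. Endothelium markers were detected in 2 of 4 (summed signal 111.4 and 651.7, with PECAM1 and KDR detected on neither array and the 2 detected VWF probes opposed in sign) and fibroblast markers in 2 of 5 (370.4 and 5258). The latter sum was carried by COL1A1, higher by 3.99, while COL1A2, COL3A1 and DCN were detected on neither array. The part of these markers in the differences of the NF-κB genes was not tested.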

How the data were processed

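RNA of Ca9-22 cells with a control vector or a DLEU1 vector (100 ng each, 1 array per group) was labelled with Cy3. Each deposited intensity was the processed signal of Agilent Feature Extraction (version 10.7.3.1 in the headers), that is background-subtracted and spatially detrended, with surrogates in place of the dimmest signals. Neither these nor the deposited series values, the same intensities rounded (within 0.497%), were normalized between arrays. The authors analysed the arrays in GeneSpring.

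Here control spots and outlier spots (84 and 103) were left out, log2 signals were averaged per probe and the 75th percentile of each array (7.92 and 7.88) was subtracted, with Python 3.11.15, pandas 2.3.3 and, for normexp (offset 50), limma 3.58.1. A probe was detected where most of its spots were well above background (47.6% and 48.1% of probes), and a gene took its brightest probe detected on both arrays. No spot was saturated. The spread of spots comes from 282 probes with 10 spots each, pooled over spots with no outlier flag on either array. The number of arrays limits the precision.

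The members and lists were chosen with earlier results of these data known. All members were named, and of each pathway list the genes at least 2-fold different or detected on 1 array only, or, where these were over 6, the 3 highest, the 3 lowest and the 2 largest bounds. The genes IL1B, TNF, TNFRSF1A, BCL10, CHUK, IKBKB, MAP3K14, NFKBID, NFKBIZ, CYLD, TNIP2, BIRC2, the markers and the neighbours of REL were named after their values were seen. The same holds for the neighbours of TNFAIP3 and BIRC3 and for the genes named because their probes disagreed in sign. Scaling and calling were run on simulated data with few changed probes, an even shift between arrays and spot noise only. Such data check the computation and not whether the calls hold for these arrays. Loess used statsmodels 0.14.6 (span 0.3), and promoters came from RefSeq. Probe positions are hg19.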

Additional observations from a re-analysis of the deposited data

How the results depend on the processing

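A total of 15 alternatives were run, of which leaving out the strip of spots lower on the DLEU1 array was chosen after seeing the data. No paired analysis was possible because each group had 1 array. Of 129 values of the 10 genes, 49 shifted past the spot SD and 80 stayed within it, and no gene past 2-fold changed sign. The cause was not tested unless stated. The median over the 10 genes was -0.40 under the detected-probe percentile, -0.62 with median scaling, -0.90 with spike-in scaling, -0.38 with loess, -0.40 with quantile normalization and -0.23 with a signal of at least 100, which leaves out BIRC3. The number called lower among them was 3, and 5 with spike-in scaling or a 1.5-fold threshold, and 2 with normexp, a signal of at least 100 or a 3-fold threshold. Counts over all genes were 1858 higher and 1981 lower. They were 1014 and 4327 with spike-in scaling, 4232 and 3807 with no filter on dim probes, 3731 and 4459 at 1.5-fold and 774 and 671 at 3-fold by construction, and 1121 higher with normexp and 1026 with a signal of at least 100. Higher genes were 48.4% of those called in the main setting, 58.4% under the detected-probe percentile, 39.0% with median scaling, 56.4% with loess and 19.0% with spike-in scaling. The median over the pathway lists was -0.069 under the detected-probe percentile, -0.29 with median scaling, -0.58 with spike-in scaling, -0.090 with a signal of at least 100 and -0.28 with the nearest spots taken off. Pathway genes called higher numbered 2 in the main setting, 1 with median scaling, with no scaling, with normexp, with the nearest spots taken off and with the mean of probes, 4 with quantile normalization, with loess and with no filter, 8 at 1.5-fold, and 0 with spike-in scaling and at 3-fold. Those called lower numbered 15, and 24 with spike-in scaling, 9 with a signal of at least 100, 24 at 1.5-fold and 6 at 3-fold. Signal over background limits BIRC3, NFKB2, LTB, NFKBID, NFKBIZ, the dim target genes and the dim neighbours of REL.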

Other observations

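Probes of the same gene disagreed in sign for RBCK1, CARD14, TAB2 and CFLAR. The brightest of 4 detected CFLAR probes (-0.66) was alone in its sign, as was the brightest of 3 RBCK1 probes (-0.55). Within 500 kb of BIRC3 on chromosome 11, the matrix metalloproteinase genes MMP10, MMP1 and MMP3 differed by 5.14, 1.29 and -3.69, while YAP1 differed by 0.31.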
